A study of Mus musculus with 6 samples.

Results

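*Dcn*, *Lum*, *Bgn*, *Fmod*, *Ogn*, *Aspn*, *Slc6a13*, *Aldh1a2*, *Ptgds* and *Foxc1* are 10 genes, none of them a collagen gene, that fibroblasts of the brain's coverings are known to express. They were chosen by symbol, with earlier results of these data known, from the 34745 genes of a mouse cortex RNA sequencing table. Each of the 10 had an entry. In the cortex of Pen-2 cKO (conditional knockout) mice, *Dcn* was 3.23-fold and *Lum* 2.80-fold as high as in controls, and both rose past the test. The other 8 did not pass it, and the call for *Dcn* was lost in some fits that left out a single library. For *Fmod*, *Ptgds*, *Aldh1a2*, *Slc6a13*, *Ogn* and *Foxc1* the cKO libraries lay far apart, with replicate 3 the highest and replicate 2 the lowest of them. *Dcn* and *Bgn* had the same order over a narrower range.

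In the control group the genotype was Pen-2 F/F, homozygous for a floxed allele of *Psenen*, which encodes the PEN-2 subunit of the protease γ-secretase. The cKO genotype was Pen-2 F/F; hGFAP-Cre, so the floxed allele was common to all 6 samples and the Cre transgene was listed for the cKO samples alone. RNA was taken from the cortex on postnatal day 8, with 3 libraries per group. The human GFAP promoter of the transgene is known to drive Cre in radial glia as well as in astrocytes, and so to reach neurons and glia that descend from them, whereas meningeal fibroblasts descend from neural crest and mesoderm. The labels do not say that the libraries of a group came from separate animals, so every p-value is relative to a spread between libraries that may be technical only. They also do not say whether meninges or choroid plexus were removed from the tissue. In such a bulk sample, fewer cells of a type and less RNA per cell cannot be told apart.

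Meningeal fibroblasts build the dura, arachnoid and pia, lay down the collagen of these layers and extend along the larger vessels that enter the cortex. *Dcn*, *Lum*, *Bgn*, *Fmod*, *Ogn* and *Aspn* encode small leucine-rich proteoglycans, secreted proteins with a horseshoe-shaped repeat domain that bind collagen fibrils and set their diameter and spacing, and several of which also bind growth factors of the TGF-β family. The other genes encode a transporter, a pair of enzymes of lipid-like signals and a transcription factor that forming meninges require.

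Levels are given in FPKM, the fragments of a gene scaled for its transcript length and for the depth of the library. This scaling does not make libraries fully comparable. Their sums of FPKM ran from 276530 to 294693, and the split of calls over all genes depended on further scaling, as given in the closing section. The implied depth was 20242400 to 24875700 fragments per library in controls and 25117200 to 26804500 in the cKO, so every cKO library was deeper than every control. *Psenen* was at 6.35, 6.86 and 7.32 FPKM in control replicates 1 to 3 and at 3.56, 3.90 and 4.03 FPKM in cKO replicates 1 to 3, and fell by 0.82 on the log2 scale (limma adjusted p = 0.00441), though the range of this gene overlaps that of *U2af1l4* on the other strand. The cortical neuron marker *Slc17a7* was between 176 and 250 FPKM in all libraries. Replicate 3 of the cKO group stood apart in the markers of the choroid plexus, the secretory epithelium of the ventricles, whose summed level was 899 FPKM there, 190 and 335 FPKM in the other cKO libraries and 38.6 to 186 FPKM in controls. Markers of the ependyma, which lines the ventricles, summed to 21.4 FPKM in that library, to 6.77 and 7.02 FPKM in the other cKO libraries and to 8.59 to 11.7 FPKM in controls.

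On the deposited coordinates, which use mm10, several of the genes lie side by side. *Dcn* (chromosome 10, 97479500 to 97518162, plus strand) and *Lum* (97565501 to 97572703, plus strand) are 47.3 kb apart with no coding gene between them, and the related genes *Kera* and *Epyc* follow on the same strand. *Aspn* (chromosome 13, 49544443 to 49567557) and *Ogn* (49608071 to 49624500) lie on the plus strand with *Omd* between them and *Ecm2* upstream, and all 4 lie within the range of *Cenpp* on the opposite strand. *Bgn* is on chromosome X (73483602 to 73495933), *Fmod* on chromosome 1 (134037254 to 134048277), *Slc6a13* on chromosome 6 (121300227 to 121337733) and *Aldh1a2* on chromosome 9 (71215789 to 71296243), all on the plus strand. *Foxc1* is also on the plus strand of chromosome 13 (31806691 to 31810643), and *Ptgds* is on the minus strand of chromosome 2 (25466709 to 25470046). Whether counting used strand is not given in the sources used here, so reads of *Cenpp* could not be told apart from those of *Aspn* and *Ogn*.

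RefSeq promoter sequences on GRCm38.p6, the assembly that mm10 also names, were at hand for 8 of the 10 genes and not for *Dcn* and *Lum*. The 250 bases before the start are shown for *Ogn* and *Aspn*, neighbours whose levels followed different libraries, and for *Bgn* and *Foxc1*, whose cKO libraries all lay above the controls. Each is printed from 5′ to 3′ on the plus strand, with capitals marking matches on either strand to the TATA box letters TATAAA or to the GC box letters GGGCGG, and stands at chr13:49607765-49608014 for *Ogn*, chr13:49544193-49544442 for *Aspn*, chrX:73483351-73483600 for *Bgn* and chr13:31806396-31806645 for *Foxc1*.
Ogn promoter: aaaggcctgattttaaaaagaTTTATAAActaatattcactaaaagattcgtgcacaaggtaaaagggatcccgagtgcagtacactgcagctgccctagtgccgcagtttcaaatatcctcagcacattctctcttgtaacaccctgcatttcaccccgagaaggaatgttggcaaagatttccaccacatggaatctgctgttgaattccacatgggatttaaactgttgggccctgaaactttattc
Aspn promoter: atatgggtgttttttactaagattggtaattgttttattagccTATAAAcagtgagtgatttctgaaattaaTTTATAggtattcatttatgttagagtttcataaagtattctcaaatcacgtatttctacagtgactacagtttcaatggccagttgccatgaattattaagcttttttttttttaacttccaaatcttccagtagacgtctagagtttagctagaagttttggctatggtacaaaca
Bgn promoter: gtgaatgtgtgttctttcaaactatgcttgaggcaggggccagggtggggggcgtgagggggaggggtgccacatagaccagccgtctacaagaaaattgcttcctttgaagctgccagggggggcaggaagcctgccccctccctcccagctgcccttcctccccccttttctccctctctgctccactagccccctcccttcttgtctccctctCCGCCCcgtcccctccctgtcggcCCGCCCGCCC
Foxc1 promoter: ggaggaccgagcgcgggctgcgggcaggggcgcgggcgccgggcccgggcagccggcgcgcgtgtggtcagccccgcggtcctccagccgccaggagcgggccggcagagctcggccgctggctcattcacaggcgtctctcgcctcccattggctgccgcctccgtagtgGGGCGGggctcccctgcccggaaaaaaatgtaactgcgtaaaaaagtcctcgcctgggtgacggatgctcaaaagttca

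The *Ogn* and *Aspn* windows were poor in G and C, at 42.0% and 30.0%, against a median of 52.4% over 32851 mouse promoter windows of the same length. *Aspn* held a TATAAA match on each strand, 207 and 178 bases before the start. *Ogn* held a pair of overlapping matches on opposite strands, 229 and 227 bases before the start. Among all windows 12.37% held this motif. The *Bgn* and *Foxc1* windows were rich in G and C, at 64.4% and 70.8%, with 7 and 29 CpG sites against a median of 6. *Bgn* held 3 matches to GGGCGG, of which the last pair overlapped, and *Foxc1* held 1. This motif was in 32.74% of all windows. GTAAACA, a letter sequence of the kind forkhead proteins bind, was in none of the windows of the 8 genes and in 3.17% of all windows. These matches are descriptions of the letters in the window.

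The proteoglycan genes *Dcn* and *Lum* rose in the cKO cortex. *Dcn* encodes decorin, which binds collagen fibrils and TGF-β. It measured 11.98, 11.94 and 14.27 FPKM in control replicates 1 to 3 and 38.1, 28.7 and 56.6 FPKM in cKO replicates 1 to 3. The lowest cKO library was thus above the highest control library, and replicate 3 was the highest of all. The means were 12.7 ± 1.34 FPKM (SD, n = 3) in controls and 41.1 ± 14.2 FPKM (SD, n = 3) in the cKO. On the log2(FPKM + 0.1) scale the difference was 1.63 (SE 0.23), with a Benjamini-Hochberg adjusted p of 0.0136 by limma over all 14147 genes tested. That call was lost when a single library was set aside in 3 of 6 cases, with limma adjusted p of 0.0566 without control replicate 1, 0.0650 without control replicate 2 and 0.0584 without cKO replicate 1. When cKO replicate 3 was set aside the difference was 1.37 and the limma adjusted p 0.00410.

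*Lum* encodes lumican, a keratan sulphate proteoglycan of collagen fibrils. Its level was 2.79, 2.40 and 2.60 FPKM in control replicates 1 to 3 and 8.86, 5.63 and 7.30 FPKM in cKO replicates 1 to 3. Unlike *Dcn*, its highest library was cKO replicate 1, and every cKO library held more than 5 FPKM where no control reached 3. The means of 2.60 ± 0.191 FPKM and 7.26 ± 1.62 FPKM (SD, n = 3 each) differed by 1.43 on the log2 scale (SE 0.16, limma adjusted p = 0.00446). The limma adjusted p stayed between 0.00440 and 0.0302 with any 1 of the 6 libraries left out. Among the 14147 tested genes ordered by log2 difference, *Dcn* stood at place 55 and *Lum* at place 72.

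These 2 were the members called of the 10, all of which passed the filter on low values, and 0 were called lower. Over all tested genes limma called 5.53% in either direction, 3.67% higher and 1.87% lower. At an unadjusted p under 0.05, 4 of the 10 were higher (*Dcn*, *Lum*, *Bgn* and *Foxc1*) and 0 lower, against 16.5% and 6.33% of all tested genes. In the authors' deposited table, 4 of the 10 (*Dcn*, *Lum*, *Foxc1* and *Slc6a13*) carry a call of up, as do 1.71% of its 34745 genes. Unlike the shares over tested genes, this one also counts the 11414 genes at 0 in all libraries. As the 10 were chosen with earlier results of these data known, none of these shares makes an independent test. *Aspn* passed the filter with all its cKO libraries but only 1 control library. The median log2 difference of the 10 was 0.51 against 0.07 for all tested genes, and 8 of the 10 differences were above 0, as were 63.6% of all.

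**Figure D1:**
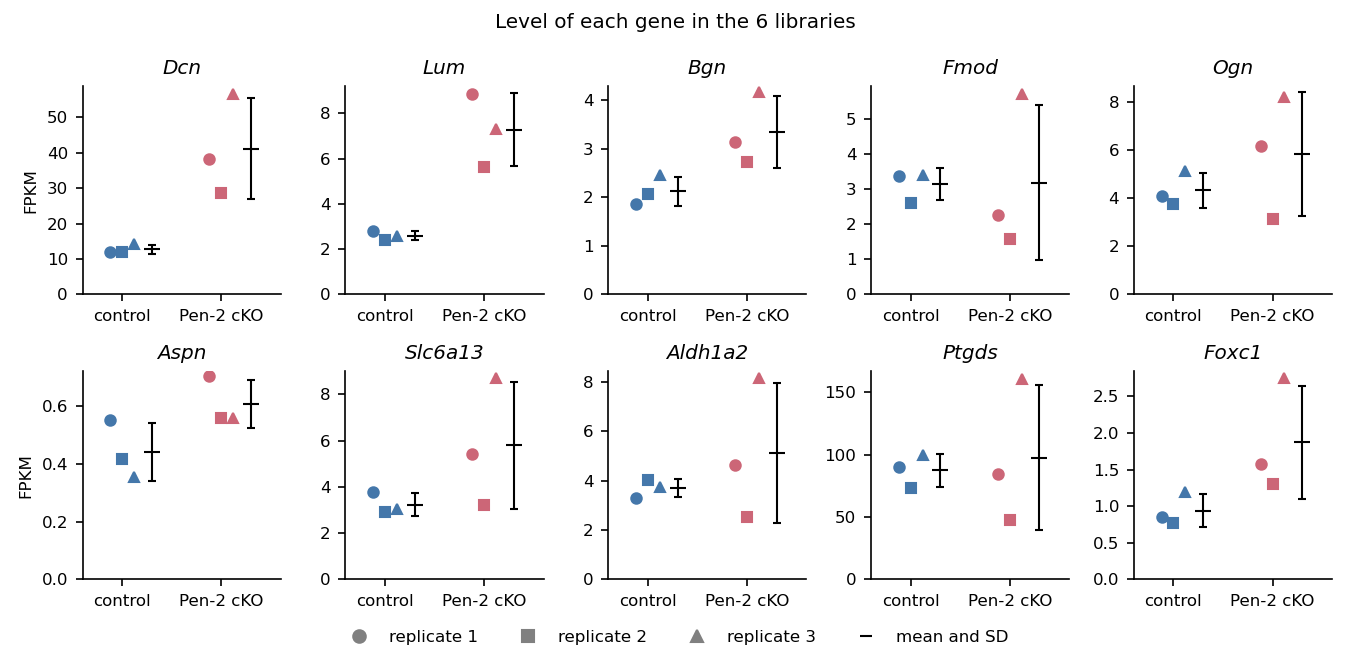
FPKM of each of the 10 genes by group, with 1 point per library (circle, square and triangle for replicates 1, 2 and 3) and the mean with its SD beside them, on axes that start at 0. The cKO points of *Dcn* and *Lum* sit well above the controls, from 28.7 to 56.6 and from 5.63 to 8.86 FPKM, while those of *Fmod*, *Ogn*, *Aldh1a2* and *Ptgds* fall on both sides of the controls.

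The other 4 proteoglycan genes did not pass the test, and they differed in whether their groups overlapped. *Bgn*, which encodes biglycan, the closest relative of decorin, was at 1.87, 2.06 and 2.45 FPKM in control replicates 1 to 3 and at 3.14, 2.73 and 4.17 FPKM in cKO replicates 1 to 3. All its cKO libraries exceeded all its controls, by a log2 difference of 0.62 (SE 0.18) with a limma adjusted p of 0.0941. *Aspn*, which encodes asporin, an extracellular matrix protein that binds collagen and TGF-β, was the lowest of the 10 at 0.550, 0.417 and 0.355 FPKM in controls and 0.703, 0.559 and 0.558 FPKM in the cKO. Its groups did not overlap, but cKO replicates 2 and 3 exceeded control replicate 1 by very little. The log2 difference was 0.40 (SE 0.22, limma adjusted p = 0.337).

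*Fmod* encodes fibromodulin, which shares with lumican a binding region on type I collagen. It was at 3.39, 2.62 and 3.42 FPKM in control replicates 1 to 3 and at 2.28, 1.58 and 5.72 FPKM in cKO replicates 1 to 3. Of the cKO libraries, 2 lay below every control and replicate 3 lay above them all. The mean was nearly equal between groups, 3.15 ± 0.454 FPKM against 3.19 ± 2.21 FPKM (SD, n = 3 each), and the log2 difference was -0.17 (SE 0.43, limma adjusted p = 0.852). Leaving out cKO replicate 3 made it -0.69 and leaving out cKO replicate 2 made it 0.21, neither of which passed the test.

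*Ogn* encodes osteoglycin, also called mimecan, and followed the same libraries. Its level was 4.11, 3.75 and 5.14 FPKM in controls and 6.16, 3.12 and 8.24 FPKM in cKO replicates 1 to 3. Replicates 1 and 3 of the cKO lay above every control and replicate 2 below them, so the groups overlapped. The log2 difference of 0.33 (SE 0.33, limma adjusted p = 0.622) was 0.03 without cKO replicate 3 and 0.72 without cKO replicate 2. *Cenpp*, the gene that spans *Ogn* and *Aspn* on the other strand, was between 1.20 and 1.85 FPKM in the 6 libraries and was not called (log2 difference 0.27, limma adjusted p = 0.419).

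None of the neighbours of these genes in their clusters was called. *Kera* and *Epyc*, beyond *Lum*, were at most 0.0948 and 0.162 FPKM in any library, too low to be tested, although *Dcn* and *Lum* beside them were at several FPKM or more. *Ecm2*, beside *Aspn*, was at 0.617, 0.769 and 0.783 FPKM in controls and 1.05, 0.980 and 1.42 FPKM in the cKO, without overlap, with a log2 difference of 0.59 (SE 0.19, limma adjusted p = 0.125). *Omd*, between *Aspn* and *Ogn*, had a log2 difference of 0.24 (limma adjusted p = 0.669). *Prelp*, the nearest relative of *Fmod* on chromosome 1 at 115.8 kb, had one of 0.15 (limma adjusted p = 0.877), and *Optc* next to it was at most 0.489 FPKM and was not tested. Of 11 small leucine-rich proteoglycan genes outside the 10, 5 passed the filter and limma called 0, with 1 higher and 1 lower at an unadjusted p under 0.05.

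*Slc6a13* encodes GAT2, a transporter of GABA and taurine that marks the leptomeninges in brain. It was at 3.79, 2.89 and 3.03 FPKM in control replicates 1 to 3 and at 5.44, 3.23 and 8.71 FPKM in cKO replicates 1 to 3. Replicate 2 of the cKO lay within the control range and the other cKO libraries lay above it. The log2 difference was 0.72 (SE 0.33) with a limma adjusted p of 0.254, and it was 0.37 without cKO replicate 3 and 1.08 without cKO replicate 2. Among the 4 tested of 5 genes for GABA, taurine and betaine transporters outside the 10, *Slc6a11*, which encodes the astrocyte transporter GAT3, fell by 1.15 on the log2 scale (SE 0.07, limma adjusted p = 0.000545). It went from 73.0, 68.8 and 75.1 FPKM in controls to 31.0, 31.6 and 35.4 FPKM, and 0 of the others were called in either direction.

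*Aldh1a2* encodes the retinaldehyde dehydrogenase that makes retinoic acid, which the meninges are known to supply to the developing cortex. The controls were close together at 3.31, 4.03 and 3.75 FPKM, and cKO replicates 1 to 3 were at 4.64, 2.54 and 8.15 FPKM. Replicate 2 lay below every control and replicates 1 and 3 above them. With 1 annotated transcript of 2264 bases, these levels correspond to about 162, 185 and 211 fragments in controls and 264, 150 and 495 in the cKO. The log2 difference of 0.31 (SE 0.38, limma adjusted p = 0.684) turned to -0.10 without cKO replicate 3. Of 18 other genes of retinoic acid transport, synthesis, breakdown and reception, 17 were tested and limma called 0, with 4 higher and 1 lower at an unadjusted p under 0.05. Those with the highest mean over all 6 libraries were *Crabp1*, a retinoic acid binding protein, with a log2 difference of 0.62 (limma adjusted p = 0.369), and the receptor gene *Rarb*, with one of 0.51 (limma adjusted p = 0.233).

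*Ptgds* encodes lipocalin-type prostaglandin D2 synthase, which is secreted into cerebrospinal fluid and is also made by choroid plexus and oligodendrocytes. It was by far the most abundant of the 10, at 90.1, 72.9 and 99.3 FPKM in control replicates 1 to 3 and at 84.5, 47.3 and 161 FPKM in cKO replicates 1 to 3. One cKO library lay below, one within and one above the controls. The means were 87.4 ± 13.4 and 97.5 ± 57.9 FPKM (SD, n = 3 each), a log2 difference of -0.01 (SE 0.42, limma adjusted p = 0.995) that was 0.04 with libraries scaled to equal sums of FPKM. It was -0.46 without cKO replicate 3 and 0.43 without cKO replicate 2. Of 18 other genes of prostaglandin synthesis and reception, 9 were tested and limma called 0, with 1 higher at an unadjusted p under 0.05. The prostaglandin E synthase genes *Ptges3* and *Ptges2*, the most abundant of them, had log2 differences of -0.10 and 0.00 (limma adjusted p = 0.439 and 0.997).

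*Foxc1* encodes a forkhead transcription factor needed for the meninges to form. It was at 0.854, 0.774 and 1.19 FPKM in control replicates 1 to 3 and at 1.57, 1.30 and 2.75 FPKM in cKO replicates 1 to 3. The groups did not overlap, though the gap between control replicate 3 and cKO replicate 2 was small. The log2 difference of 0.88 (SE 0.29) was the largest after those of *Dcn* and *Lum*, with a limma adjusted p of 0.127. Without cKO replicate 3 it was 0.58.

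**Figure D2:**
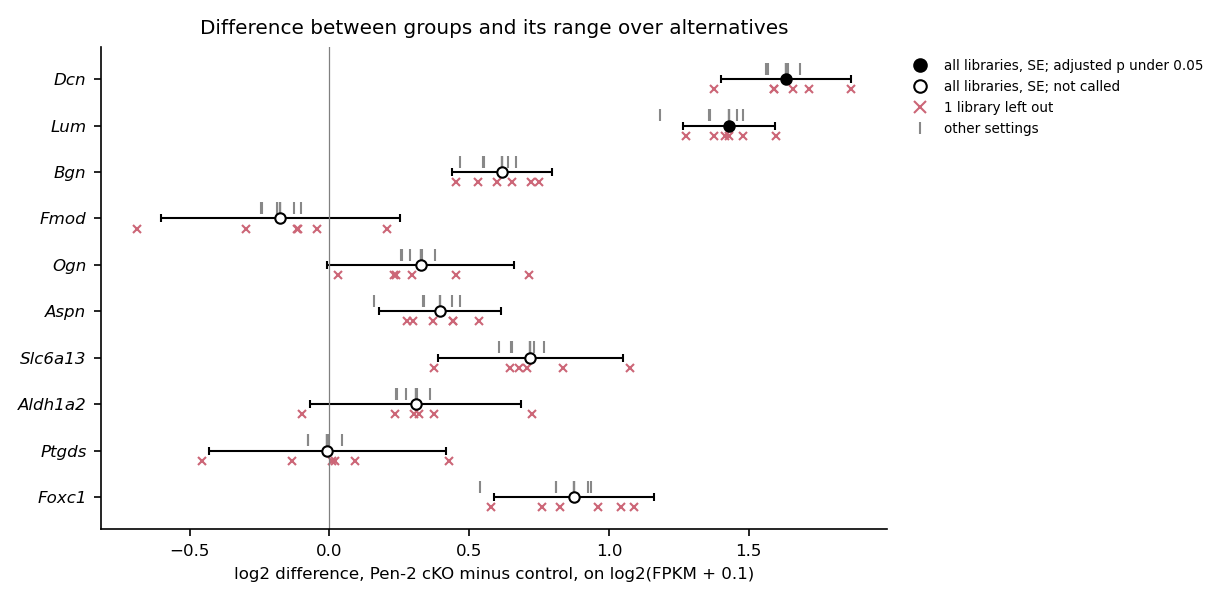
Log2 difference between cKO and control for each gene with its SE (circles, filled where the limma adjusted p was under 0.05), with crosses for fits that leave out 1 library and grey ticks for other settings. *Dcn* and *Lum* stayed above 1 throughout, whereas the crosses of *Fmod*, *Aldh1a2* and *Ptgds* fall on both sides of 0.

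Read library by library, the 10 genes shared a pattern within the cKO group. Relative to its own control mean, the median gene was at 0.99, 0.91 and 1.10 in control replicates 1 to 3 and at 1.54, 1.13 and 2.08 in cKO replicates 1 to 3. The control medians thus had the same order of replicate numbers as the cKO medians, over a narrower range. The highest of the 6 libraries was cKO replicate 3 for 8 of the 10, against 26.7% of all tested genes, and cKO replicate 1 for *Lum* and *Aspn*. The lowest of the cKO libraries was replicate 2 for 9 of the 10, against 31.3% of all tested genes, with *Aspn* as the exception by a very small margin. Replicate 3 of the cKO exceeded every control for all 10 genes, replicate 1 for 8 and replicate 2 for 5. For *Ogn*, *Fmod*, *Aldh1a2* and *Ptgds*, cKO replicate 2 lay below every control.

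The genes differed in how far cKO replicates 3 and 2 lay apart. The ratio of these libraries was 3.61 for *Fmod*, 3.40 for *Ptgds* and 3.21 for *Aldh1a2*, the widest of the 10. It was 2.70 for *Slc6a13*, 2.64 for *Ogn* and 2.11 for *Foxc1*. *Dcn* at 1.97, *Bgn* at 1.53, *Lum* at 1.30 and *Aspn* at 0.999 were the steadiest. Among controls the highest library exceeded the lowest by 1.16-fold (*Lum*) to 1.55-fold (*Aspn*). The median SD of log2 level over the 10 genes was 0.62 in the cKO and 0.21 in controls, while over all tested genes it was 0.11 and 0.14.

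The groups did not overlap for 5 of the 10 genes, *Dcn*, *Lum*, *Bgn*, *Foxc1* and *Aspn*, each with the cKO higher, and for 0 with the cKO lower. Over all tested genes the shares were 21.5% and 8.17%. With 10 genes chosen for their cell type and sharing the same 6 libraries, these counts describe the libraries.

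**Figure D3:**
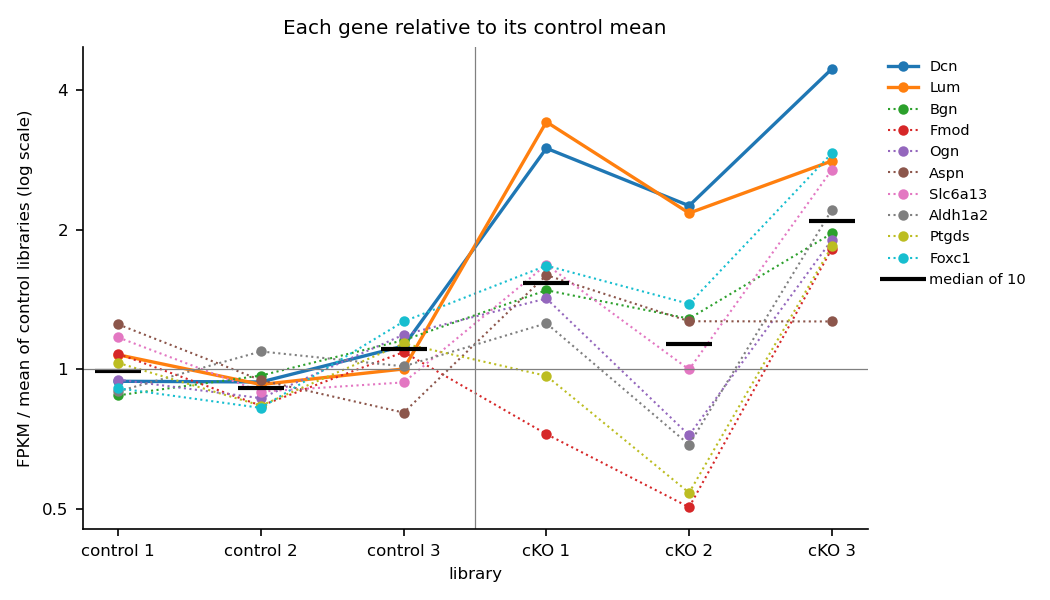
Level of each gene divided by its own control mean, on a log axis, for the 6 libraries, with black bars for the median of the 10 genes. Lines join the points of a gene and imply no order of the libraries. *Dcn* and *Lum* stand above the rest in cKO replicates 1 and 2, where most other genes are between 0.5 and 2.

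Because every gene was read in the same libraries, the level of *Dcn* was also set against each other gene within a library, a description chosen after the levels were seen and not tested. *Dcn* was 2.91, 3.18 and 2.78 times the level of *Ogn* in control replicates 1 to 3 and 6.19, 9.18 and 6.87 times in cKO replicates 1 to 3. Against *Slc6a13* it was 3.16, 4.12 and 4.71 times in controls and 7.01, 8.87 and 6.49 times in the cKO. Against *Bgn* it was 6.42, 5.80 and 5.82 times in controls and 12.1, 10.5 and 13.6 times in the cKO. In each of these comparisons, and for *Fmod*, *Aspn*, *Aldh1a2*, *Ptgds* and *Foxc1* as well, the lowest cKO ratio exceeded the highest control ratio. The ratio of *Dcn* to *Lum* did overlap, at 4.30, 4.97 and 5.50 in controls and 4.30, 5.09 and 7.75 in the cKO. The ratio of *Lum* to the other genes was higher in every cKO library than in any control for 6 of 8, with *Slc6a13* and *Foxc1* the exceptions. *Dcn* and *Lum* were set on top because they had the largest log2 differences of the 10. Higher ratios to genes that rose less follow in large part from that choice. No share over ratios of other genes was computed, so these counts add no evidence beyond the levels.

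**Figure D4:**
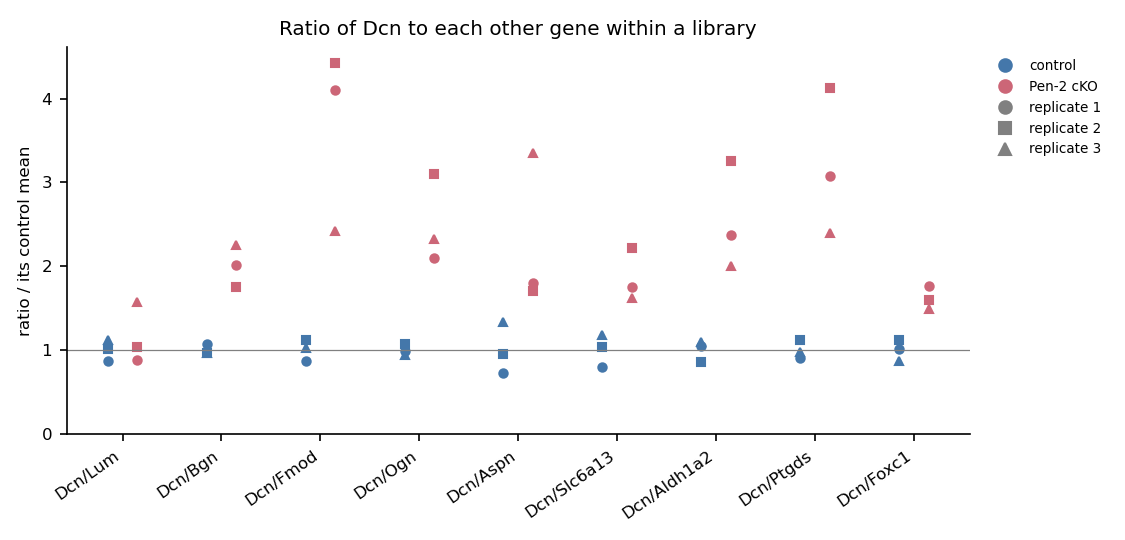
Ratio of *Dcn* to each of the other 9 genes within a library, divided by the mean of that ratio in controls, with blue points for control and red for cKO libraries. Every red point lies above every blue point of its pair except for *Dcn*/*Lum*, where cKO replicates 1 and 2 lie among the controls.

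Other genes known from meningeal fibroblasts were read from a list of 40, chosen like the other lists with earlier results known. Of these, 33 were tested. Limma called 2 higher and 0 lower, with 9 higher and 0 lower at an unadjusted p under 0.05 (16.5% and 6.33% of all tested genes) and a median log2 difference of 0.36. *S100a6*, which encodes a small calcium-binding protein, rose from 3.98, 4.22 and 4.60 FPKM to 10.7, 11.4 and 9.53 FPKM (log2 difference 1.29, SE 0.10, limma adjusted p = 0.000973). *Cped1*, which passed the filter through its cKO libraries alone, rose from 0.298, 0.223 and 0.215 FPKM to 0.909, 0.593 and 0.990 FPKM (1.41, SE 0.25, limma adjusted p = 0.0225). Of the 33, 24 were highest in cKO replicate 3 and 29 were lowest among cKO libraries in replicate 2. *S100a6* had neither trait, as it was highest in cKO replicate 2 and lowest among cKO libraries in replicate 3. The list summed to 99.7, 96.8 and 117 FPKM in controls and to 132, 99.2 and 190 FPKM in cKO replicates 1 to 3, so replicate 2 lay among the controls. With any 1 library left out limma called 1 of the list higher and 0 to 3 lower, the 3 without cKO replicate 3. *Cped1* was called in none of these 6 fits, since leaving out control replicate 1, 2 or 3 gave a limma adjusted p of 0.0534, 0.0836 or 0.0505, and without any 1 cKO library it failed the filter and was not tested.

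The collagen fibrils that these proteoglycans bind, and the enzymes that shape them, also had 2 genes called in each list. Among 11 tested of 12 fibroblast collagen genes, 2 were called higher and 0 lower. *Col3a1* had a log2 difference of 1.33 (SE 0.23, limma adjusted p = 0.0206) and *Col6a1* one of 0.78 (SE 0.16, limma adjusted p = 0.0362). Unadjusted, 7 were higher and 0 lower at p under 0.05 (16.5% and 6.33% of all tested genes), and the median log2 difference was 0.68. With 1 library left out 0 to 3 of the list were called higher, and the call was lost in 4 of 6 such fits for *Col3a1* (limma adjusted p up to 0.0769 without control replicate 2) and in 5 of 6 for *Col6a1* (up to 0.110 without control replicate 1 or 2). *Col6a1* was also not called after median-ratio scaling (limma adjusted p = 0.0531) or upper-quartile scaling (0.0518), with no filter on low values (0.0653) or with no mean-variance trend (0.0679). Among 25 tested of 29 genes of fibril processing, *P4ha1*, a collagen prolyl hydroxylase (0.68, limma adjusted p = 0.0281), and *Fbln5*, an elastic fibre protein (0.85, limma adjusted p = 0.0450), were called higher and 0 lower. *P4ha3*, of the same enzyme family as *P4ha1*, was lower without overlap and just short of a call (-1.04, limma adjusted p = 0.0512). Unadjusted, 8 of the 25 were higher and 2 lower at p under 0.05 (16.5% and 6.33% of all tested genes). With 1 library left out, 0 to 3 of these were called higher and 0 to 2 lower, and the limma adjusted p reached 0.103 for *P4ha1* (without cKO replicate 2) and 0.147 for *Fbln5* (without control replicate 2). *Fbln5* was called in none of those 6 fits, nor after median-ratio scaling (limma adjusted p = 0.0569), upper-quartile scaling (0.0560) or with a pseudocount of 1 (0.0502), and under each of these 3 settings 1 gene of the list was called lower. With no filter on low values 0 of the list were called in either direction, with limma adjusted p of 0.0516 for *P4ha1* and 0.0749 for *Fbln5*.

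Decorin, biglycan and asporin bind TGF-β, and 15 of 18 genes of its pathway were tested. Limma called 1 higher, *Tgfbi*, a matrix protein that TGF-β induces, and 0 lower. It was at 0.915, 0.959 and 0.946 FPKM in controls and at 2.26, 1.93 and 3.34 FPKM in the cKO (log2 difference 1.29, SE 0.20, limma adjusted p = 0.0156). The call was lost without control replicate 1 or 2, with limma adjusted p of 0.0613 and 0.0668. Unadjusted, 5 of the 15 were higher and 0 lower at p under 0.05 (16.5% and 6.33% of all tested genes), and the median log2 difference of the list was 0.20.

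Markers of other cells in the tissue moved with the groups or with single libraries, and their part in the values above was not tested. The choroid plexus list was at 335, 190 and 899 FPKM in cKO replicates 1 to 3, the same order as the median of the 10 genes. In controls the list ran from 38.6 through 110 to 186 FPKM, where the 10 genes kept close to their mean. Most of that run was *Ttr*, at 33.1, 104 and 178 FPKM in control replicates 1 to 3. No other tested gene of the list exceeded 2.17 FPKM in a control library. That order of cKO libraries was not particular to the choroid plexus. Other lists had it, among them the collagens (42.0, 37.1 and 53.1 FPKM) and the border macrophage markers (7.73, 6.17 and 11.1 FPKM). The oligodendrocyte, mural, microglia, ependymal, neuron, prostaglandin and skull lists had other orders. Of the choroid plexus list, 6 of 12 genes were tested and limma called 0, with 2 higher at an unadjusted p under 0.05. Its main component *Ttr* had a limma adjusted p of 0.187 and *Aqp1* one of 0.0502, so the count of 0 turned on the setting. *Aqp1* was called higher with libraries scaled to equal sums of FPKM (limma adjusted p = 0.0336), with a pseudocount of 0.01 (0.0494) and without cKO replicate 2 (0.0330). Ependymal markers (8 of 8 tested) and border macrophage markers (6 of 8 tested) had 0 called by limma, with 0 and 1 higher at an unadjusted p under 0.05, and border macrophage markers summed to 7.41 to 9.18 FPKM in controls and 6.17 to 11.1 FPKM in the cKO. Blood genes (5 of 5 tested) had 0 called and 0 at an unadjusted p under 0.05. Skull and cartilage markers summed to 1.40 to 2.07 FPKM in the 6 libraries over 10 genes, none of which passed the filter, and the bone marker *Bglap2* was listed at 0 in all of them.

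The summed vessel markers were steady among the cKO libraries, while single genes varied more or less. In cKO replicates 1 to 3 *Cdh5* was at 6.05, 5.22 and 7.30 FPKM and *Tagln* at 4.54, 4.25 and 5.97 FPKM. *Abcc9* was at 2.05, 2.16 and 2.25 FPKM. Endothelial markers summed to 54.1 to 64.4 FPKM in controls and 67.2 to 74.1 FPKM in the cKO, and 1 of 12, *Cdh5*, was called higher (log2 difference 0.70, limma adjusted p = 0.0469). Mural cell markers summed to 60.4 to 66.4 FPKM in controls and 75.2 to 78.6 FPKM in the cKO. Of 11 tested mural genes, *Tagln* (0.99, limma adjusted p = 0.0147) and *Abcc9* (0.58, limma adjusted p = 0.0403) rose and *Notch3* fell (-0.78, limma adjusted p = 0.00919). With 1 library left out these calls were lost in 5 of 6 fits for *Cdh5* (limma adjusted p up to 0.144, without control replicate 2), in all 6 for *Abcc9* (up to 0.138, without cKO replicate 2), without control replicate 1 or 2 for *Tagln* (0.0563 and 0.0549) and without control replicate 2 for *Notch3* (0.0539). After median-ratio scaling *Cdh5* (limma adjusted p = 0.0714) and *Abcc9* (0.0589) were not called either. At an unadjusted limma p under 0.05, 7 of the 11 mural genes were higher and 1 lower. Of the 12 endothelial genes 4 were higher and 0 lower (16.5% and 6.33% of all tested genes). Oligodendrocyte markers, among whose cells *Ptgds* is also known, summed to 37.0 to 52.4 FPKM in controls and 130 to 202 FPKM in the cKO, with 7 of 11 called higher. Homeostatic astrocyte markers summed to 522 to 617 FPKM in controls and 181 to 258 FPKM in the cKO, with 9 of 12 called lower.

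**Figure D5:**
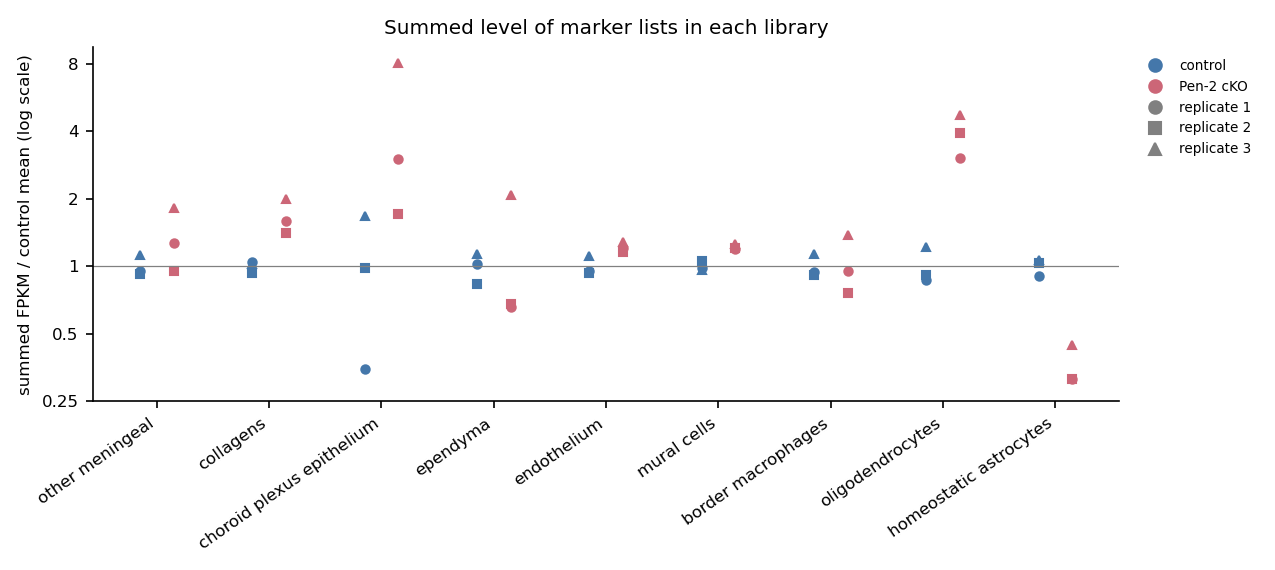
Summed FPKM of each marker list divided by its control mean, on a log axis, with 1 point per library. For the other meningeal genes, the collagens, the choroid plexus and the border macrophages, cKO replicate 3 is the highest point and replicate 2 the lowest of the cKO. The endothelial and mural points of the cKO lie close together.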

How the data were processed

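Total RNA of mouse cortex was sequenced in 6 libraries. Values were deposited in FPKM, per the file headers, in a table whose name speaks of raw counts. The submitters' processing notes name mm10. The aligner, the counter and its use of strand are not stated in the labels. No source states the test behind the p-value and q-value columns that the authors deposited, and their values appear only in the closing section. The 6 per-library tables held the same values as the series table, 11414 of 34745 genes were at 0 in all libraries, and 27763 gene ranges were identical to GENCODE M21. Depth was recovered from the smallest steps of genes with a single transcript, in which 93.0% to 93.9% of low values were within 0.01 of a whole fragment. Genes with several transcripts do not allow this, so no count test was run.

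The test, limited to genes that reached 0.5 FPKM in 3 or more libraries, was that of limma 3.58.1 in R 4.3.3, with a mean-variance trend and robust variances, on log2(FPKM + 0.1) with group as the only term. Fold changes on this scale understate the change of low genes. Benjamini-Hochberg adjustment ran over all 14147 genes tested, and 0.05 was the threshold for a call. The steps were tested on simulated data. The members and the 19 further gene lists were chosen with earlier results of these data known. Besides all members, *Psenen* and the cluster neighbours, each list could contribute its 4 called genes of smallest p, or its 2 most abundant where no gene was called. *Cenpp*, *Slc17a7*, *Bglap2*, *U2af1l4*, *P4ha3* and unadjusted counts were added after values were seen. 2 list symbols were matched by gene ID. Motifs were searched on both strands of RefSeq windows of 250 bases. Software was Python 3.11.15, pandas 2.3.3, NumPy 2.4.6 and matplotlib 3.10.9. Alternatives varied the pseudocount, filter, scaling, variance options, a replicate term and each library left out.

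Of the lists not described with the results, microglia had 1 of 10 called higher (*Fcrls*, log2 difference 0.59) and cortical excitatory neurons 1 of 8 called lower (*Emx1*, -0.63). Each call was lost in 4 of 6 fits with 1 library left out, where the limma adjusted p reached 0.102 for *Fcrls* (without cKO replicate 2) and 0.112 for *Emx1* (without control replicate 2). It was also lost for *Fcrls* after median-ratio scaling (limma adjusted p = 0.0550), for *Emx1* with no filter (0.0612), and for both with no mean-variance trend. At an unadjusted limma p under 0.05, 6 of the 10 microglia genes were higher and 0 lower. Of the 8 neuron genes 0 were higher and 3 lower (16.5% and 6.33% of all tested genes).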

Additional observations from a re-analysis of the deposited data

How the results depend on the processing

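Of the 10 genes, 2 (*Dcn* and *Lum*) were called under every setting that kept all 6 libraries, and 1 to 2 with 1 library left out, with *Lum* alone called without control replicate 1, control replicate 2 or cKO replicate 1. Of 159 values of the 10 genes under alternatives, 3 lost a call and 2 changed sign with a shift of at least the SE. Those 2 were *Aldh1a2*, at -0.10 without cKO replicate 3, and *Ptgds*, at 0.43 without cKO replicate 2. Shifts beyond the SE that kept their sign were not counted. One such was *Fmod*, at -0.69 without cKO replicate 3 against -0.17 (SE 0.43) with all libraries. Of 582 values of the other named genes 71 lost a call. Over all genes 783 were called, 499 with no filter on low values, where more genes share the adjustment, and 210 to 813 with 1 library left out (lowest without control replicate 2, and 300, 315 and 302 without control replicate 1, cKO replicate 1 and cKO replicate 2). Of list genes 29 were called, and 16 to 34 with 1 library left out, with 16 and 17 without control replicates 2 and 1. The split of calls was 519 higher and 264 lower, 312 and 346 after median-ratio scaling, 319 and 339 after scaling to the upper quartile, 907 and 244 once the sums of FPKM were made equal, and 314 and 307 without cKO replicate 3. The cause was not tested. Over all tested genes, same-numbered libraries deviated together with correlations of 0.06, 0.01 and 0.10. Not every library matched its own number best, so the numbers were not taken as pairs. With the replicate block 456 genes were called, *Dcn* and *Lum* among them, and 33 list genes. The SE was smaller with that block for each of the 10 genes, for *Dcn* 0.14 against 0.23 without it. *Fbln5* (limma adjusted p = 0.0852), *P4ha1* (0.0636), *Abcc9* (0.0859) and *Emx1* (0.0706) lost their call with that block, and *Aqp1* gained one (0.0178).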

Other observations

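In the authors' deposited table *Dcn* has a q-value of 8.28e-14, *Lum* one of 1.66e-06, *Foxc1* one of 0.0225 and *Slc6a13* one of 0.0410, each called up. *Bgn* has a q-value of 0.0127 in the authors' deposited table without a call, and the other 5 have neither a low q-value nor a call. Of these, *Foxc1*, *Slc6a13* and *Bgn* were not called by limma on the 6 libraries (adjusted p of 0.127, 0.254 and 0.0941).

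The p-values beside those q-values follow another order: in the authors' deposited table *Dcn* has a p-value of 0.00978, *Lum* one of 0.00207, *Bgn* one of 0.0285, *Foxc1* one of 0.0559 and *Slc6a13* one of 0.131. The group values in the authors' deposited table are also not the plain means of the libraries. For *Aldh1a2* they are 3.68 FPKM in controls and 6.86 FPKM in the cKO, where the 3 libraries average 3.70 and 5.11 FPKM.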
